A study of Homo sapiens with 6 samples.

Results

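The genes described here encode the proteins of the cytoplasmic ribosome, together with the paralogs of a few of them. They were chosen by symbol alone, as rows named RPL or RPS with a number and at most a short suffix, plus RPLP0, RPLP1, RPLP2, RPSA and RPS27L. Pseudogene rows and the Y-linked copies of RPS4X were left out. The rule found 85 of the 23346 gene rows, of which 52 belong to the large (60S) subunit and 33 to the small (40S) subunit. RNA was sequenced from KhES-1, an established line of human embryonic stem cells, cultured on a laminin fragment. The tested cells were kept in AKIT, 3 libraries, and the control cells in Essential 8 (E8), a defined medium with FGF2 and TGF-beta, of which replicates 1 and 2 were used. AKIT is known as a medium that replaces these growth factors with kinase and calcineurin inhibitors. E8 replicate 3 was not analysed here. No other treatment or genotype is given, and both media were used with the same line and coating.

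A ribosome holds 1 copy of almost every ribosomal protein, and these proteins accumulate in matched amounts, in part because unassembled ones are degraded. Most of their mRNAs begin with a C followed by a run of pyrimidines, the 5′ terminal oligopyrimidine tract, through which the kinase complex mTORC1 and the RNA-binding protein LARP1 set their translation. RNA levels therefore say nothing here about how much ribosomal protein was made. Many of these genes also carry snoRNAs in their introns, and they have left large families of processed pseudogenes, so that short reads from them are hard to place.

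The start of the transcript is shown for the genes that the results turn on, because the tract is the feature that ties the family together. Each sequence runs from 10 bases before to 20 bases from an annotated start, 5′ to 3′ on the gene's own strand, from RefSeq on GRCh38.p14. Where a gene has several annotated starts, a start with the tract was preferred, so the windows do not measure how common the tract is. Capitals mark the C at the start and the pyrimidines that follow it without a break, where these number at least 4. The values themselves were made on another build (hg19).
RPL24, chr3:101686699-101686728, minus strand: atgattctctCTTTCTTTTCgccatctttt
RPL18, chr19:48619159-48619188, minus strand: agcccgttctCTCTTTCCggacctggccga
RPLP2, chr11:809957-809986, plus strand: tcggcgccttCCTTTTCCTCCCTgtcgcca
RPL38, chr17:74203668-74203697, plus strand: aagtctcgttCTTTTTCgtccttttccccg
RPL11, chr1:23691796-23691825, plus strand: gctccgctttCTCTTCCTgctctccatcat
RPS12, chr6:132814559-132814588, plus strand: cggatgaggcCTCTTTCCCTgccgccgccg
RPL13A, chr19:49487598-49487627, plus strand: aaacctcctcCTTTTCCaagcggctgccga
RPL29, chr3:51995876-51995905, minus strand: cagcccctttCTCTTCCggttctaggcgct
RPS27, chr1:153990752-153990781, plus strand: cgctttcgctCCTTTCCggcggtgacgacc
RPL22L1, chr3:170870176-170870205, minus strand: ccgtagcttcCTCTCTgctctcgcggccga
RPL10L, chr14:46651762-46651791, minus strand: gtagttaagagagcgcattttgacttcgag
RPS27L, chr15:63157458-63157487, minus strand: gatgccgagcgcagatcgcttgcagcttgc
The first 6 of these genes were higher in AKIT, RPL13A and RPL29 were not called, RPS27 was lower, and the last 3 are paralogs. Of the 5 paralogs with an entry in the promoter table, RPL22L1 had the tract at its start and RPL10L, RPL26L1, RPL7L1 and RPS27L had none.

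Of the 85 genes, 67 have an entry in the RefSeq promoter table, and 47 of these (70.1%) had the tract, against 5.14% of the 27305 genes in that table. A gene was counted, here and for the motifs below, when any of its entries matched. In the window from 250 bases before to 50 bases after the start, searched on both strands, the ETS motif CCGGAAG was found in 35.8% of the 67 genes and 12.2% of all genes. The YY1 motif ATGGCGG was found in 20.9% and 6.66%, the SP1 motif GGGCGG in 58.2% and 48.3%, and TATAAA in 10.4% and 13.99%. These matches describe the letters of the windows and are not evidence of binding.

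In AKIT the ribosomal protein genes stood higher as a family, with a wide spread between members. Of the 82 that could be tested, 29 rose, 1 fell and 52 did not pass the test. Among all 14776 genes tested, 8.22% rose and 11.7% fell. The test was limma's moderated test on log2(RPKM + 1), with "rose" and "fell" used for a Benjamini-Hochberg adjusted p below 0.05 over all tested genes. RPKM is the read count scaled by gene length and library depth, and a log2 difference is AKIT minus E8, given ± its standard error. The pseudocount of 1 makes differences of low genes smaller than their true size. The fitted difference was above 0 for 66 of the 82 genes, against 48.8% of all tested genes. All 3 AKIT libraries lay above both E8 libraries for 49 ribosomal protein genes (25.8% of all genes) and below both for 9 (28.6% of all genes), and the groups overlapped for 24. The median difference was 0.31, against -0.01 over all tested genes, whose 10th and 90th percentiles were -0.57 and 0.43. The labels do not name separate cultures, so the p-values cover only the spread among these libraries, which may be technical.

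Along with the share of all genes that rose, the count of calls changed when single libraries were left out. It was 17 without AKIT replicate 1 (5.35% of all genes), 45 without AKIT replicate 2 (14.5%) and 16 without AKIT replicate 3 (4.62%). With only 1 E8 library left, it was 3 without E8 replicate 1 (0.969%) and 7 without E8 replicate 2 (0.963%), where the lone library is assumed to vary like the AKIT libraries. The median difference stayed between 0.28 and 0.43 over these 5 fits. AKIT replicate 2 was the lowest AKIT library for 57 of the 82 genes, against 40.1% of all tested genes, and the part of this library in the results was not tested.

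**Figure D1:**
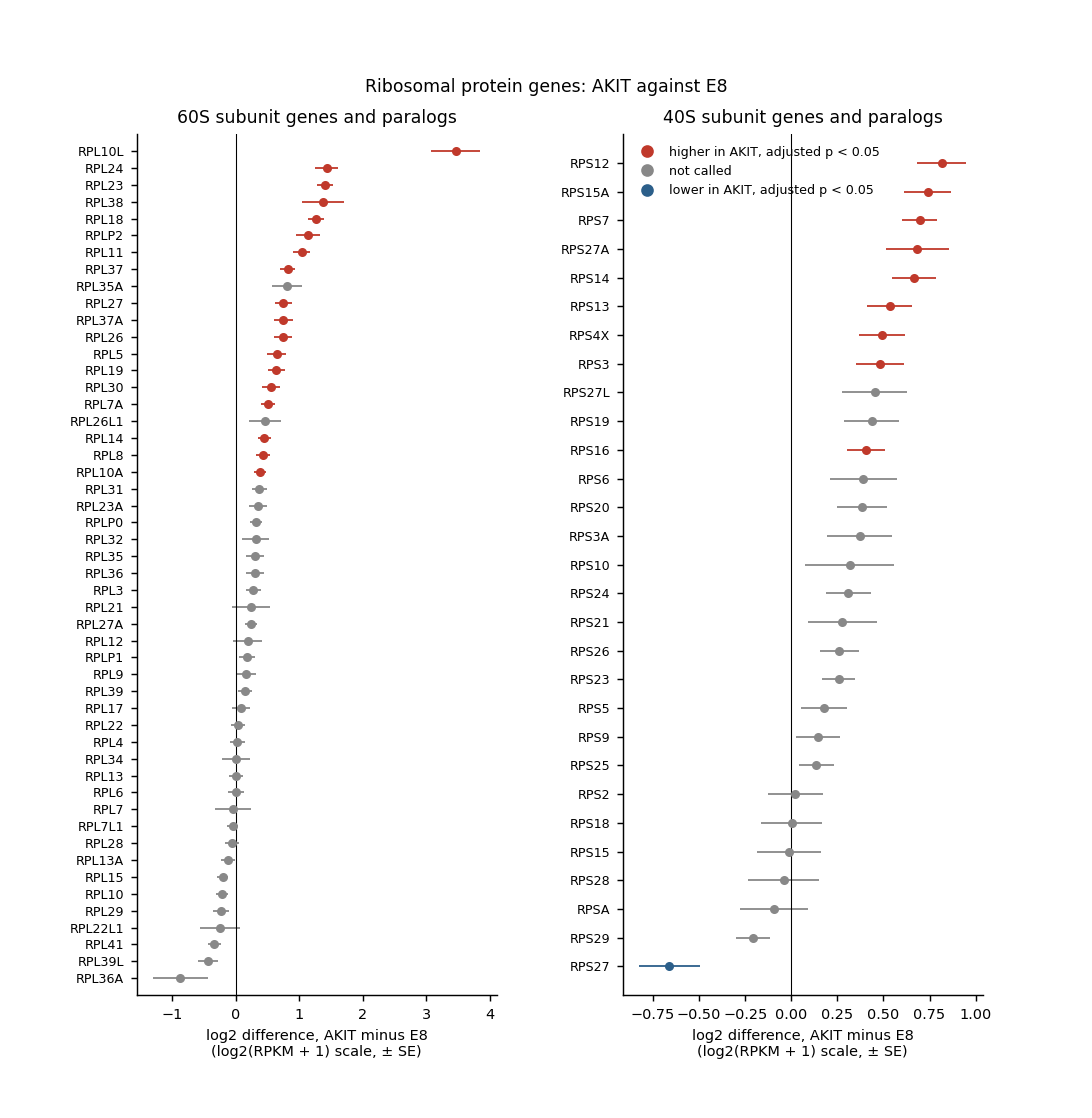
The plot of log2 differences (horizontal axis, AKIT minus E8, from log2(RPKM + 1) values) shows 79 of the 82 tested genes as points with their standard errors, 60S genes on the left and 40S genes on the right. Most points lie to the right of 0, with 27 called higher (red) and RPS27 called lower (blue).

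The summed level of the 85 genes was 10217, 8626 and 10219 RPKM in the AKIT libraries, against 7694 and 7970 RPKM in the E8 libraries. All AKIT sums lay above both E8 sums, and the ratio of the means was 1.24. The 60S genes summed to 6657, 5709 and 6627 RPKM in AKIT, against 5176 and 5270 RPKM in E8 (ratio 1.21). The 40S genes summed to 3560, 2917 and 3592 RPKM in AKIT, against 2518 and 2700 RPKM in E8 (ratio 1.29). The sum of 60S over the sum of 40S was 1.87, 1.96 and 1.84 in AKIT and 2.06 and 1.95 in E8, which overlap. Of the reads counted in each library, these genes took 0.962%, 0.831% and 0.967% in AKIT and 0.753% and 0.785% in E8. RPKM and the percentage of reads are shares of a library, so these values do not measure RNA per cell. In a bulk sample, a change within cells and a change in the mix of cells cannot be told apart.

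**Figure D2:**
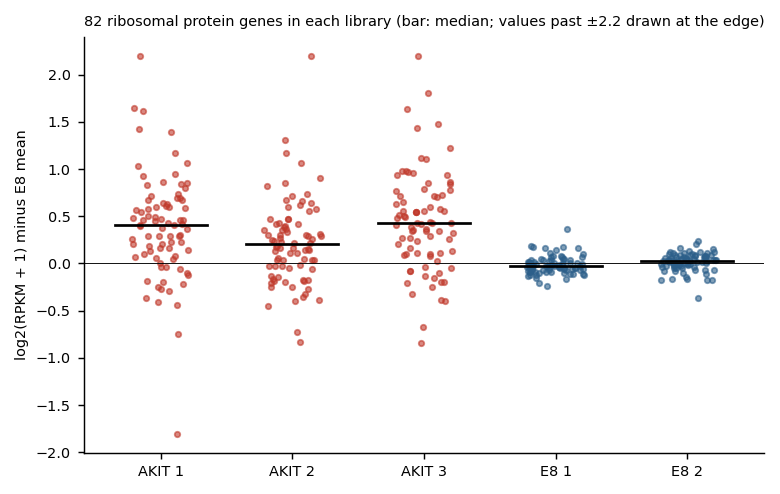
The plot shows, for each library (horizontal axis), the log2(RPKM + 1) of the 82 tested genes minus the mean of the E8 libraries (vertical axis), with the median as a bar. The medians were 0.41, 0.20 and 0.43 in AKIT replicates 1 to 3 and -0.03 and 0.03 in E8 replicates 1 and 2. The E8 points lie near 0 by construction, since their own mean was subtracted.

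Among the 51 tested 60S genes, 18 rose and none fell, with a median difference of 0.31. The canonical genes with the largest differences were RPL24, RPL23, RPL38 and RPL18. RPL24, a late-joining protein that bridges the subunits, had 53.9, 36.5 and 54.8 RPKM in AKIT, against 16.3 and 17.6 RPKM in E8. Its log2 difference was 1.44 ± 0.18 (limma adjusted p = 0.00371), and the lowest AKIT library was again replicate 2. RPL23, at the surface where the subunits meet and the anti-association factor eIF6 binds, had 69.2, 63.6 and 71.7 RPKM in AKIT, against 28.2 and 22.3 RPKM in E8. Its AKIT libraries lay close together and far above E8 (1.41 ± 0.12, limma adjusted p = 0.00142). With the reads of its pseudogene row RPL23P8 added, the difference was 0.68 (limma adjusted p = 0.0112). RPL18, a structural protein of the 60S subunit, had 22.4, 22.5 and 27.2 RPKM in AKIT, against 8.84 and 9.99 RPKM in E8 (1.26 ± 0.12, limma adjusted p = 0.00178).

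RPL38, which in the mouse is needed for the translation of a set of Hox mRNAs, had 11.4, 5.26 and 12.9 RPKM in AKIT, against 3.47 and 2.51 RPKM in E8. The groups did not overlap, but AKIT replicate 2 lay nearer to E8 than to the other AKIT libraries (1.37 ± 0.33, limma adjusted p = 0.0303). The AKIT values of this short gene rested on 52, 24 and 49 reads, and its call was lost without AKIT replicate 1 or 3, without either E8 library, with no filter on low values and in voom, a limma test on the recovered reads (highest adjusted p = 0.198). RPL37, a small zinc-binding protein, had 41.2, 48.0 and 52.5 RPKM in AKIT, against 26.2 and 26.2 RPKM in E8 (0.82 ± 0.12, limma adjusted p = 0.00616).

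RPL5 and RPL11 join the 5S rRNA in a particle that also binds MDM2, the ubiquitin ligase of p53, and both rose. RPL11 had 167, 141 and 186 RPKM in AKIT, against 74.0 and 84.7 RPKM in E8 (1.04 ± 0.14, limma adjusted p = 0.00443). RPL5 had 173, 127 and 158 RPKM in AKIT, against 91.6 and 102 RPKM in E8 (0.64 ± 0.15, limma adjusted p = 0.0253). For both genes the lowest AKIT library exceeded the highest E8 library.

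The stalk of the 60S subunit, which recruits translation factors, is built from RPLP0, RPLP1 and RPLP2. RPLP2 rose, with 60.01, 42.5 and 48.8 RPKM in AKIT, against 18.7 and 26.3 RPKM in E8 (1.13 ± 0.19, limma adjusted p = 0.00913). RPLP1 had the highest level of all 85 genes, at 1006, 884 and 886 RPKM in AKIT, against 862 and 781 RPKM in E8 (0.17 ± 0.13, limma adjusted p = 0.376). The AKIT libraries of RPLP1 lay above E8 by less than the spread. RPLP0 had 97.6, 87.1 and 94.0 RPKM in AKIT, against 71.1 and 77.2 RPKM in E8 (0.32 ± 0.10, limma adjusted p = 0.0612), without passing the test.

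**Figure D3:**
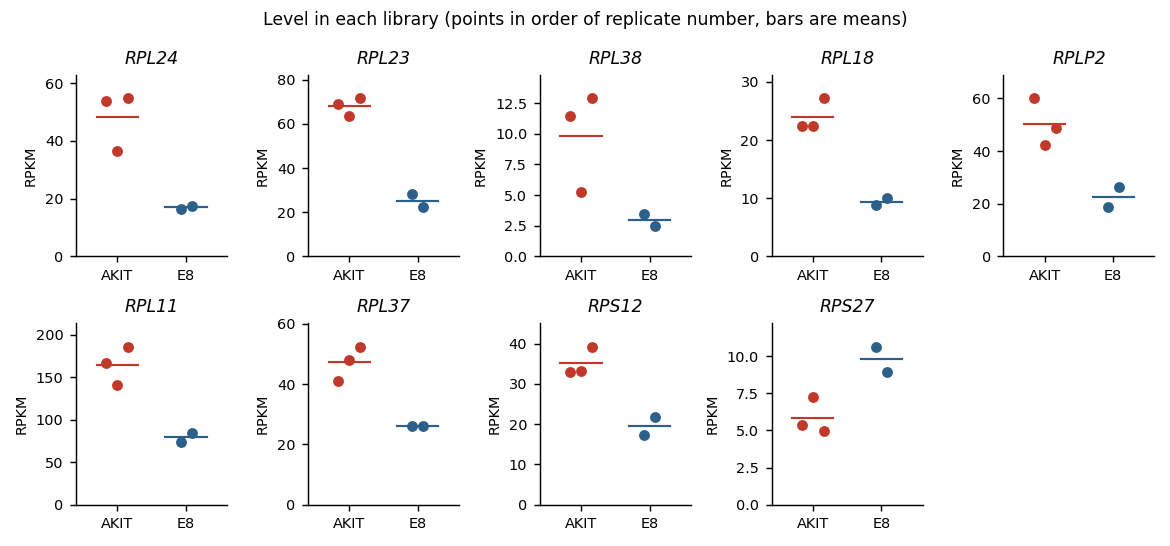
Each panel gives the level of 1 gene in RPKM (vertical axis, from 0) in the AKIT libraries (left) and the E8 libraries (right), with points in order of replicate number and the mean as a bar. In the 8 genes that rose, every AKIT point lies above both E8 points; in RPS27 every AKIT point lies below them.

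The other 60S genes that rose were RPL27, RPL37A, RPL26, RPL19, RPL30, RPL7A, RPL14, RPL8 and RPL10A, with log2 differences from 0.75 for RPL27 to 0.38 for RPL10A. RPL8, next to the peptidyl transferase centre, was among the most abundant, at 733, 651 and 755 RPKM in AKIT, against 531 and 526 RPKM in E8 (0.43 ± 0.12, limma adjusted p = 0.0447). RPL3, which lies near the same centre, had 461, 383 and 425 RPKM in AKIT, against 331 and 367 RPKM in E8 (0.28 ± 0.12, limma adjusted p = 0.154). RPL35A (limma adjusted p = 0.0535) and RPL41 (limma adjusted p = 0.0507) lay just outside the threshold, at differences of 0.81 and -0.34.

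Other abundant 60S genes lay lower in AKIT without passing the test. RPL13A, known also as part of a complex that silences inflammatory mRNAs, had 553, 505 and 539 RPKM in AKIT, against 569 and 585 RPKM in E8 (-0.12 ± 0.11, limma adjusted p = 0.470). RPL29 had 481, 391 and 448 RPKM in AKIT, against 520 and 509 RPKM in E8 (-0.23 ± 0.12, limma adjusted p = 0.227). In both, every AKIT library lay below both E8 libraries, and both have the tract at the start, as printed above. Every AKIT library was also below both E8 libraries for RPL10, RPL15, RPL39L, RPL41, RPL7L1 and the 40S gene RPS29, of which none passed the test.

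RPL36A had the widest AKIT range among the canonical genes on the log2 scale, with 3.47, 13.2 and 8.78 RPKM in AKIT, against 16.6 and 12.9 RPKM in E8. The groups overlapped and the difference was -0.87 ± 0.43 (limma adjusted p = 0.196). The table also holds a separate read-through row of RPL36A with its neighbour, so reads of this gene may be divided between both rows.

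Among the 31 tested 40S genes, 11 rose and 1 fell, with a median difference of 0.37. RPS12, a protein of the subunit's beak, had 33.0, 33.1 and 39.3 RPKM in AKIT, against 17.3 and 21.8 RPKM in E8 (0.82 ± 0.13, limma adjusted p = 0.00890). Its libraries did not overlap between the media. Among the others that rose were RPS15A, RPS7, RPS27A, RPS14, RPS13, RPS4X, RPS3 and RPS16, with differences from 0.74 for RPS15A to 0.41 for RPS16.

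RPS14, whose loss is known from the 5q- syndrome, had 120, 121 and 147 RPKM in AKIT, against 78.5 and 82.9 RPKM in E8 (0.67 ± 0.12, limma adjusted p = 0.0119). RPS27A, which is made as a fusion with ubiquitin, had 42.4, 29.4 and 42.9 RPKM in AKIT, against 23.0 and 23.2 RPKM in E8 (0.68 ± 0.17, limma adjusted p = 0.0336). RPS4X, the X-linked form of its protein, had 457, 423 and 505 RPKM in AKIT, against 308 and 349 RPKM in E8 (0.49 ± 0.12, limma adjusted p = 0.0348). All 3 had every AKIT library above both E8 libraries.

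RPS6, the substrate of the S6 kinases downstream of mTORC1, was the most abundant 40S gene. It had 703, 479 and 679 RPKM in AKIT, against 455 and 477 RPKM in E8 (0.39 ± 0.18, limma adjusted p = 0.171). AKIT replicate 2 stood just above the E8 libraries and the other AKIT libraries far above them. RPS27, a zinc-finger protein of the 40S subunit, was the only member that fell. It had 5.39, 7.23 and 4.99 RPKM in AKIT, against 10.6 and 8.95 RPKM in E8 (-0.66 ± 0.16, limma adjusted p = 0.0332). These values rested on 44, 59 and 34 reads in AKIT and 66 and 51 reads in E8, and 66.5% of the gene's 50-base stretches also occur in pseudogene transcripts. The call was lost with a replicate block (limma adjusted p = 0.122), without AKIT replicate 1 or 3, and without either E8 library. It was also lost with no filter on low values and in voom.

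Of the genes with the largest differences, RPL10L, RPL18 and RPL23 passed under all 18 settings tried. RPL24, RPL11 and RPS12 failed only without E8 replicate 1, with adjusted p of 0.0510, 0.0703 and 0.104 in limma. None of the 30 called genes changed direction under any of these settings.

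Of the 8 paralogs, 6 could be tested and 1 rose. RPL10L, an intronless copy of RPL10, is known from the testis, where in the mouse it stands in for the X-linked RPL10 during male meiosis. It had 15.9, 5.10 and 11.98 RPKM in AKIT and was listed at 0 in both E8 libraries. Counted as reads, it had 300, 96 and 188 in AKIT and none in E8. With the 3 AKIT libraries pooled, AKIT was at least 100.1-fold higher per read sequenced. This takes 3 reads over both E8 libraries as the limit that a count of 0 allows (counting error only). The bound leaves out the spread among the AKIT libraries and would be smaller for AKIT replicate 2 alone. The log2 difference was 3.46 ± 0.39 (limma adjusted p = 0.00266), a value that depends on the pseudocount. Its parent RPL10, a late-joining protein needed for the final step of 60S maturation, had 28.4, 28.4 and 31.2 RPKM in AKIT, against 35.4 and 33.4 RPKM in E8 (-0.22 ± 0.10, limma adjusted p = 0.143).

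The coding sequences of RPL10L and RPL10 are 89.3% identical and differ at 69 of 642 bases, so reads of one can in principle be told from the other. A stretch rich in differences, coding positions 557 to 616 in GENCODE release 29, is printed with the 13 bases that differ in capitals.
RPL10L, chromosome 14: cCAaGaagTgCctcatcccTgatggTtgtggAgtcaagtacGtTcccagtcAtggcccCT
RPL10, chromosome X: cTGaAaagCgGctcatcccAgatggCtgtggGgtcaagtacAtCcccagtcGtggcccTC
Of the 50-base stretches of the RPL10L transcript, 0.131% also occur in a pseudogene and none in any other gene. The 5 germ cell and testis markers DDX4, DAZL, SYCP3, PRM1 and TNP1 summed to 1.35, 1.62 and 2.09 RPKM in AKIT, against 1.67 and 1.85 RPKM in E8, so the sums overlapped between the media. TNP1 was listed at 0 throughout, while SYCP3 lay higher in AKIT at 0.419, 0.533 and 0.411 RPKM, against 0.301 and 0.273 RPKM in E8, below the filter for the test.

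RPL39L, a paralog of the exit-tunnel protein RPL39 that is also known from the testis, had 34.2, 27.2 and 39.6 RPKM in AKIT, against 44.5 and 46.8 RPKM in E8. Every AKIT library lay below both E8 libraries, but the difference of -0.44 ± 0.16 did not pass the test (limma adjusted p = 0.0889). RPL39 itself had 3.65, 3.32 and 3.34 RPKM in AKIT, against 2.97 and 3.07 RPKM in E8 (0.14 ± 0.12, limma adjusted p = 0.418). In RPKM, the paralog stood above its parent 9.38, 8.19 and 11.8 times in AKIT and 15.0 and 15.2 times in E8. Their coding sequences differ at 8 of 153 bases, so the share of reads given to each is uncertain.

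RPS27L, a p53 target, had 18.5, 15.5 and 24.3 RPKM in AKIT, against 14.2 and 13.2 RPKM in E8 (0.45 ± 0.18, limma adjusted p = 0.117). As its parent RPS27 fell, the ratio of RPS27L to RPS27 was 3.44, 2.15 and 4.87 in AKIT and 1.33 and 1.48 in E8, without overlap. RPL22L1, a paralog that RPL22 represses in the mouse, had 10.8, 6.90 and 16.9 RPKM in AKIT, against 14.8 and 11.6 RPKM in E8, and its AKIT libraries lay on both sides of E8 (-0.25 ± 0.31, limma adjusted p = 0.610). RPL22 had 76.7, 65.7 and 65.0 RPKM in AKIT, against 65.8 and 68.5 RPKM in E8 (0.04 ± 0.11, limma adjusted p = 0.830).

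RPL26L1 had 4.06, 1.70 and 2.47 RPKM in AKIT, against 1.52 and 1.73 RPKM in E8, with overlap (0.46 ± 0.25, limma adjusted p = 0.235). Its parent RPL26, which lies at the mouth of the exit tunnel, rose to 158, 123 and 169 RPKM in AKIT, against 86.5 and 90.1 RPKM in E8 (0.74 ± 0.15, limma adjusted p = 0.0160). RPL7L1, a paralog of RPL7, had 18.9, 19.0 and 18.3 RPKM in AKIT, against 19.5 and 19.2 RPKM in E8 (-0.05 ± 0.09, limma adjusted p = 0.741). RPL7 had 1.39, 2.57 and 1.17 RPKM in AKIT, against 2.50 and 1.10 RPKM in E8 (-0.04 ± 0.28, limma adjusted p = 0.940). RPL3L, the striated muscle form of RPL3, stayed below the filter at 0.0563 to 0.225 RPKM over the 5 libraries.

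**Figure D4:**
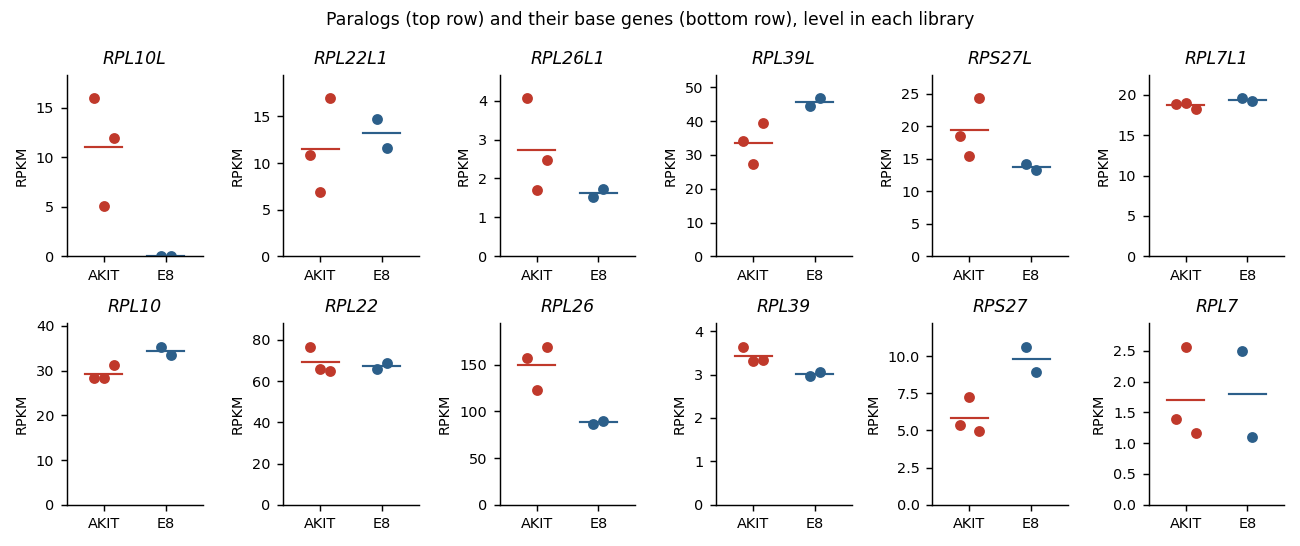
Panels give the level in RPKM (vertical axis, from 0) of 6 paralogs in the top row and of their parents in the bottom row, with AKIT libraries left, E8 libraries right and the mean as a bar. RPL10L is at 0 in both E8 libraries, and RPL39L and RPS27 lie lower in all AKIT libraries than in E8.

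Levels in RPKM spanned a wide range for proteins that the ribosome holds in nearly equal numbers. The part of shared sequence in these levels was not tested. Of its own 50-base stretches, RPL7 shared 95.7% with pseudogene transcripts, RPS3A 83.4% and RPL21 77.6%, the last with 61 pseudogenes, and these 3 stood under 10 RPKM in every library. RPL38 shared none and lay between 2.51 and 12.9 RPKM, and RPL13A shared 65.8% and lay between 505 and 585 RPKM. Over 83 genes the rank correlation between mean RPKM and the shared part was -0.12, a description of members that share libraries. The pseudogene RPL19P12 was listed at 224, 190 and 226 RPKM in AKIT, against 184 and 207 RPKM in E8, while RPSAP58 had 174, 97.5 and 142 RPKM in AKIT, against 154 and 169 RPKM in E8. The parent gene RPSA had 10.2, 11.6 and 16.3 RPKM in AKIT, against 13.4 and 13.3 RPKM in E8, so levels of such genes may not be comparable with those of other members.

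RPL23P8 was listed at 121, 86.5 and 101.3 RPKM in AKIT, against 79.9 and 84.8 RPKM in E8. When the reads of 28 pseudogene rows were added to their parents, 28 genes rose and 1 fell, against 8.21% and 11.7% of all genes. RPL19 lost its call, and RPL23 kept its call at the smaller difference of 0.68, against 1.41 for its own row. Genes with under 10% of stretches in pseudogenes rose in 12 of 31 cases (median 0.38), those with 10 to 40% in 11 of 24 (median 0.40) and those with 40 to 100% in 6 of 27, with 1 that fell (median 0.24).

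The share of genes that rose differed between some of the features examined. With the tract at the start, 15 of 47 rose and 1 fell (median 0.31), and without it 6 of 20 rose (median 0.27). Of the tested genes with no promoter entry, 8 of 15 rose (median 0.46). Genes that carry a snoRNA in an intron rose in 11 of 28 cases (median 0.36), and the others in 18 of 54 (median 0.31). Among genes with a mean above 100 RPKM, 15 of 30 rose (median 0.40). Between 10 and 100 RPKM 12 of 42 rose (median 0.27), and under 10 RPKM 2 of 10 rose and 1 fell (median 0.31). The 10 genes with a length over 2000 bases, as recovered from the RPKM steps, which can fall short of the true length by a whole factor, had a median of 0.02 and 1 that rose, against 28 of 72 and 0.37 for shorter genes. Over all 82 genes, the rank correlation of the log2 difference was -0.29 with this length and -0.27 with the shared part, as descriptions. Removing each library's trend on the recovered length left 29 that rose (8.93% of all genes), 27 of them as before, and made 4 that fell (13.4% of all genes), namely RPL29, RPL39L, RPL41 and RPS27.

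Related genes were counted in the same fit, where 8.22% of all genes rose and 11.7% fell. Of 4 ribosomal proteins outside the symbol rule, 2 rose. One of them was FAU, made as a fusion with a ubiquitin-like protein, which had 113, 83.7 and 111 RPKM in AKIT, against 66.8 and 70.7 RPKM in E8 (0.56 ± 0.15, limma adjusted p = 0.0385). Of 16 translation factors and other mRNAs known for the same tract, 6 rose and none fell (median 0.37). The largest differences were those of EIF3E, a subunit of the initiation factor eIF3, EEF1G (0.64) and EIF3H (0.58). EIF3F, another eIF3 subunit, lay lower in every AKIT library without passing the test (-0.46 ± 0.16, limma adjusted p = 0.0796). EEF2 (0.05) and EEF1A1 (-0.09) overlapped between the media. EIF3E had 18.0, 21.3 and 18.9 RPKM in AKIT, against 5.30 and 5.67 RPKM in E8 (1.65 ± 0.11, limma adjusted p = 0.00057).

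Some genes that build ribosomes also rose. Of 24 factors of 40S assembly 7 rose (median 0.32), with EMG1 (0.74), RRP9 (0.68) and NOC4L (0.66) the largest. Of 28 factors of 60S assembly 8 rose (median 0.33), with RPF2 (0.88), which loads the 5S particle, the AAA ATPase MDN1 (0.85) and the RNA helicase DDX21 (0.77) the largest. DDX21 had 145, 164 and 164 RPKM in AKIT, against 94.3 and 89.3 RPKM in E8, and here AKIT replicate 2 was not low. Of 12 genes listed for the snoRNA particles and for factors linked to them, 5 rose (median 0.26). Of these, NOP58 (0.38) and the methyltransferase FBL (0.38) belong to the particles themselves. The others were the linked factors NAF1 (0.45), NCL (0.39) and NOLC1 (0.38). None of these 3 lists had a gene that fell. Of 7 chaperones of ribosomal proteins 1 rose, HEATR3 (0.44), and of 10 noncoding snoRNA hosts 1 rose, SNHG5 (0.44).

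Of 27 genes of RNA polymerases I and III, 5 rose and 1 fell (median 0.19). POLR3B (0.72) and POLR1B (0.67), the second largest subunits of their enzymes, rose, as did POLR1A, TCOF1 and TWISTNB, while POLR3GL, a subunit that alternates with POLR3G, fell (-0.64). Among 18 genes of mTORC1, LARP1 and MYC, 2 rose and 3 fell (median -0.05). Those that rose were LARP4 (0.59) and DEPTOR (0.56), an inhibitor of mTOR, and the 3 that fell were the MYC family, known as activators of ribosomal genes. MYC had 70.2, 125 and 74.5 RPKM in AKIT, against 156 and 163 RPKM in E8 (-0.87 ± 0.24, limma adjusted p = 0.0442). MYCN had 64.3, 85.5 and 62.7 RPKM in AKIT, against 133 and 137 RPKM in E8 (-0.94 ± 0.15, limma adjusted p = 0.00779). MYCL1 had 6.50, 6.95 and 6.39 RPKM in AKIT, against 13.3 and 13.4 RPKM in E8 (-0.92 ± 0.10, limma adjusted p = 0.00251). All 3 lay lower in every AKIT library than in E8. Of 11 genes of p53 and its targets none rose and 1 fell, the apoptosis gene BBC3 (-0.44).

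**Figure D5:**
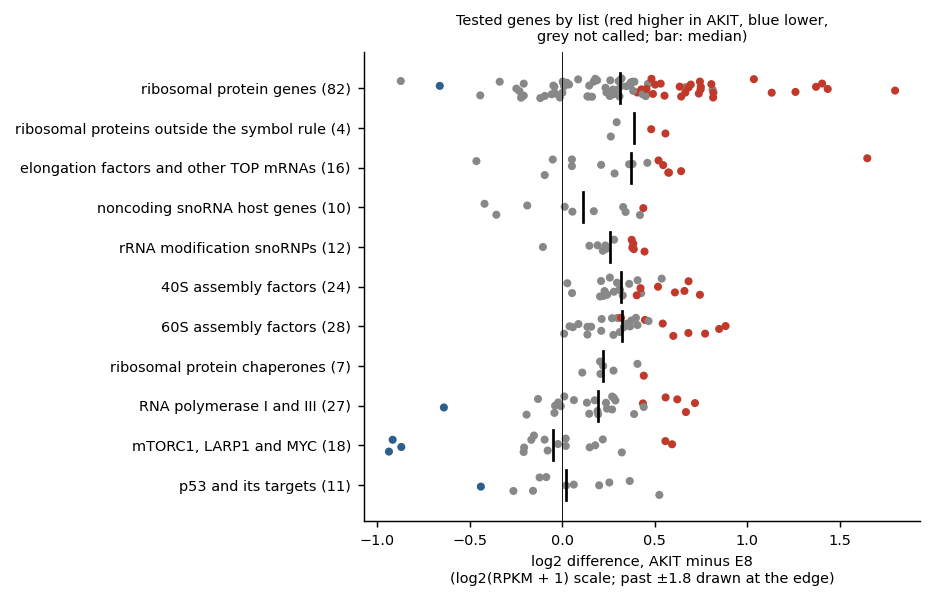
Each point is a tested gene, placed by its log2 difference (horizontal axis, AKIT minus E8, from log2(RPKM + 1) values) in the row of its list, with the number of tested genes in parentheses and the median as a bar. The medians lie between 0.19 and 0.39 for the rows from ribosomal proteins to RNA polymerases except the noncoding hosts (0.11), and near 0 for the mTORC1 and p53 rows.

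The libraries rested on 23253216, 23263095 and 19398694 reads in AKIT and 17657634 and 16242864 reads in E8. Some cell type markers also differed between the media, in the same fit where 8.22% of all tested genes rose and 11.7% fell. Pluripotency markers summed to 2268, 2255 and 2316 RPKM in AKIT and 2528 and 2501 RPKM in E8, with 1 of 6 that fell (SOX2). Mesoderm and endoderm markers summed to 5.29 to 7.24 RPKM in AKIT and 1.57 to 2.56 RPKM in E8, with 1 of 3 tested genes that rose (FOXA2). Trophoblast and amnion markers summed to 2.63 to 5.22 RPKM in AKIT and 9.25 to 9.85 RPKM in E8, with 2 of 3 that fell (KRT7 and TFAP2A). Fibroblast markers summed to 50.6 to 60.9 RPKM in AKIT and 65.8 to 69.1 RPKM in E8, with 1 of 4 that fell (COL1A1). Neural crest and neural markers summed to 2.18 to 5.93 RPKM in AKIT and 2.56 to 3.03 RPKM in E8, which overlap. Of the fibroblast markers, COL3A1 had 5.63, 2.15 and 0.141 RPKM in AKIT and at most 0.0413 RPKM in E8, and LUM had 5.81, 1.83 and 0.0244 RPKM in AKIT and was listed at 0 in E8. Striated muscle markers summed to 120 to 145 RPKM in AKIT and 58.6 to 59.9 RPKM in E8, with 2 of 3 tested genes that rose (ACTA1 and ACTC1). Most of this sum was ACTA1, at 132, 103 and 128 RPKM in AKIT, against 53.6 and 54.3 RPKM in E8. TTN lay higher in every AKIT library than in E8 without passing the test. MYH7 and CKM lay below the filter for the test, with overlap between the media. The part of these markers in the ribosomal results was not tested.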

How the data were processed

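RNA of KhES-1 cells was sequenced from 3 AKIT and 2 E8 libraries used here. The authors deposited 1 table of RPKM values for 23346 gene symbols. Builds hg19 and GRCh37 are named per the submitters' processing notes. Not given in the sources used here are the aligner, counting tool, annotation and use of strand. Columns were matched by sample title.

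From the steps between low RPKM values, whole reads were recovered for 100% of the 19892 genes above 0 (tolerance 0.02 reads). They give the depth and the reads per gene, cover 99.0% of each library's total, and take for each gene the smallest length that gives whole reads, so a gene's reads may be too low by a whole factor. Intervals and floors cover counting error only.

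Genes whose mean RPKM reached 0.5 were tested in limma (3.58.1, in R 4.3.3) as log2(RPKM + 1) computed from the deposited RPKM, with the prior variance following the intensity, two-sided and Benjamini-Hochberg adjusted over 14776 genes at 0.05. It was tested on simulated data. Shared sequence was counted as exact 50-base stretches of GENCODE release 29 transcripts (GRCh38), although the read length is not known here. Start and promoter sequences are RefSeq's.

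Named with values were each paralog with its parent, up to 10 called genes per direction by size, the 5 highest and 5 lowest genes, the 4 widest in AKIT and up to 3 called genes per related list; RPL5, RPLP0, RPS14 and RPS27A, called genes of the lists beyond 3, marker genes, the genes just outside the threshold and the pseudogenes were added after their values were seen. A few genes that the rule takes are not reported here. The genes and lists were chosen with earlier results of these data known. Alternatives were pseudocounts of 0.1 and 0.5, other filters (none, or a mean of 2 RPKM), median-of-ratios or quantile scaling, no trend, array weights, a replicate block, voom, removal of a loess trend on length (span 0.3), each library left out, and, chosen after seeing the data, pseudogene reads added to their parents.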

Additional observations from a re-analysis of the deposited data

How the results depend on the processing

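The median difference and the ratio of summed RPKM kept their direction and moved by less than the replicate spread under every alternative run. The count of ribosomal protein genes that rose stayed within 1.5 times of 29 except with a replicate block (12) and with 1 library left out (16 to 45 without an AKIT library). The share of all tested genes that rose moved too. It was 3.33% with the block and 15.4% with array weights, against 8.22% in the main fit. The count that fell was 1 (11.7% of all genes). It became 0 with no filter (7.63%), with a replicate block (5.58%) and with voom (12.8%). It was 2 with a minimum mean of 2 RPKM (11.8%), and 4 with array weights (18.5%) and with the length trend removed (13.4%). With 1 AKIT library left out it ranged from 0 to 3 (7.55% to 17.8%). The cause was not tested, beyond the smaller number of samples. The deviations of same-numbered AKIT and E8 libraries from their group means correlated at -0.0013 and 0.025 over 14776 genes. AKIT replicate 3 and E8 replicate 1 gave 0.032. The 2 E8 libraries deviate by equal and opposite amounts, so these values cannot settle whether same-numbered libraries were handled together. E8 replicate 3 was not used, so under the block AKIT replicate 3 has no partner and adds nothing to the difference. The median difference was therefore the same with the block and without AKIT replicate 3, at 0.29, against 0.31 in the main fit. Whether the loss of calls under the block reflects a weaker effect was not tested. For single named genes, 725 comparisons with an alternative stayed on their side of the threshold, 12 crossed to a call and 145 lost one, and no called gene changed direction. For counts over the related lists, 256 stayed, 16 grew and 68 shrank. Genes with few reads, such as RPL38, RPL39 and RPS27, limit what can be detected.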

Other observations

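The nearest protein-coding gene of the GENCODE release 29 annotation to RPL10L is MDGA2, an adhesion molecule gene on the same strand of chromosome 14, which ends 188271 bases upstream of RPL10L on GRCh38. It was looked at after the values of RPL10L were seen. MDGA2 had 3.31, 1.84 and 2.46 RPKM in AKIT, against 1.03 and 0.997 RPKM in E8 (0.79 ± 0.19, limma adjusted p = 0.0292), and the order of the AKIT libraries was that of RPL10L. No annotated gene overlaps RPL10L.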
